A study of Mus musculus with 94 samples.

Results

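Zscan4b, Zscan4c, Zscan4d, Zscan4f, Tmem92 and Zfp352 are 6 mouse genes that belong to the transcription program of the 2-cell embryo, and their RNA was followed here in differentiating embryonic stem cells after loss of the cohesin release factor WAPL or of the cohesin subunit RAD21. They were chosen by symbol, with an earlier reading of the WAPL comparison of days 4 to 7 in view. For these genes the values of that comparison are therefore a description without a test. All 6 were found in each of the 4 count tables, which together hold 24767 gene symbols, so none was absent from any table. A filter on low counts was passed by all 6 in WAPL days 4 to 7, by Zfp352 only through the treated libraries, and by 5 in WAPL days 7 to 10, where Zfp352 was left out. It was passed by 3 in the RAD21 RNA table (Zscan4c, Zscan4d and Tmem92) and by 3 in the RAD21 PRO-seq table (Zscan4d, Tmem92 and Zfp352).

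The series holds 94 samples, and the 18 with gene counts were analysed here, 14 by poly(A) RNA-seq and 4 by PRO-seq. All came from CAST/Ei x 129/Sv/Jae embryonic stem cells with a Tsix-stop allele, kept on irradiated embryonic fibroblasts and then differentiated as embryoid bodies. Every group, controls included, carried an FKBP degron on WAPL (clones H7 and H2) or on RAD21 (clones C4 and G9), and each clone is a single cell line. The degron is a protein tag through which the small molecule dTAG-13 brings the tagged protein to a ubiquitin ligase. Treated cells received 500 nM dTAG-13, and controls received the same volume of DMSO. WAPL cells were treated for 3 days, either from day 4 to day 7 (3 libraries per treatment, of which replicates 1 and 2 are clone H7 and the other is clone H2) or from day 7 to day 10 (clone H7, with 2 libraries per treatment). In RAD21 cells the treatment lasted 8 h and ended at day 10 for RNA-seq and at day 7 for PRO-seq, which maps nascent RNA at engaged polymerases. Each RAD21 clone gave 1 library per treatment and assay. Whether replicates came from separate cultures is not stated. The p-values below therefore measure only how far these samples spread, which may be technical.

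The genome of the mouse embryo is first switched on at the 2-cell stage, in a burst of transcription that includes the Zscan4 genes and is shut down again as development goes on. ZSCAN4 proteins carry a SCAN domain and zinc fingers, are found in a small and changing fraction of cultured embryonic stem cells, and are known for a role in telomere maintenance there. Zfp352 encodes another zinc finger protein and Tmem92 a transmembrane protein, and both serve as markers of the same state. The homeodomain factor Dux activates the program, and Dppa2 and Dppa4 act upstream of Dux. Cohesin is the ring complex that forms chromatin loops. RAD21 is one of its core subunits, and WAPL takes the ring off chromatin.

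The Zscan4 genes are near-identical copies in a cluster on chromosome 7, Tmem92 lies on chromosome 11 and Zfp352 on chromosome 4. RefSeq lists 9 Zscan4 entries on chromosome 7, 5 of them not protein-coding. Promoter sequences were taken from RefSeq (build GRCm38.p6, which is not the build of the count tables and is used for these sequences alone), whose table holds 5 of the 6 genes, all but Tmem92. They are shown because the Zscan4 rows of the tables cannot be read without knowing how alike the copies are. The first 4 lines below give the same 216 bases upstream of each Zscan4 copy, ending at or before its annotated start, at chr7:10905051-10905266 (minus strand) for Zscan4b, chr7:11005506-11005721 (plus strand) for Zscan4c, chr7:11166183-11166398 (minus strand) for Zscan4d and chr7:11397699-11397914 (plus strand) for Zscan4f. Capitals mark the 12 positions at which the copies differ. The fifth line gives the 250 bases before the Zfp352 start, chr4:90218570-90218819 (plus strand), with capitals on a word of 10 letters that occurs 9 times there.
Zscan4b: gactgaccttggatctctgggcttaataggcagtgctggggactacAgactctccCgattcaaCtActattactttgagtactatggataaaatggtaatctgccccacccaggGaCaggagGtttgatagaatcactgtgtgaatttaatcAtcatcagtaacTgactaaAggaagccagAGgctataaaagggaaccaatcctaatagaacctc
Zscan4c: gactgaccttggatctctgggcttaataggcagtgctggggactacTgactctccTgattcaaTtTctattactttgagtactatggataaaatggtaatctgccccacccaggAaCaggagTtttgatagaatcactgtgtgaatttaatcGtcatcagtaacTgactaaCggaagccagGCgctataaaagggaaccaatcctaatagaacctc
Zscan4d: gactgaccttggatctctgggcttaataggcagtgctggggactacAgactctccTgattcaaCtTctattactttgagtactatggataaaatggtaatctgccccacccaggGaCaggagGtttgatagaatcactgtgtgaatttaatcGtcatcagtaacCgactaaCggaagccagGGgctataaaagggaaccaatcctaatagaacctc
Zscan4f: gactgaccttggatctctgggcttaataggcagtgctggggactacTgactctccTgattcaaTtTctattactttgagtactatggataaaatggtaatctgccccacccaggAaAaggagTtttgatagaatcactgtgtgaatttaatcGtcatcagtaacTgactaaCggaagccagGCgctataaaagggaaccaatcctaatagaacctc
Zfp352: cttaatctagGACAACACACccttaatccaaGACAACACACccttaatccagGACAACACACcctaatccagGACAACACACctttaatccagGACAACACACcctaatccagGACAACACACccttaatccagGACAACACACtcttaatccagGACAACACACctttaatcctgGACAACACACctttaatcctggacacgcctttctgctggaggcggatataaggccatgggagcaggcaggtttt

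Zscan4c and Zscan4f differed at 1 of these 216 bases, and Zscan4b and Zscan4f, the most distant pair, at 11. Zscan4d stood between them, with 6 differences from Zscan4b and 6 from Zscan4c. The letters TATAAA occurred once in each Zscan4 promoter, on the gene's strand, 31 bases before the annotated start of Zscan4b and Zscan4f, 54 before that of Zscan4c and 65 before that of Zscan4d, and were not found for Zfp352. They occur on either strand in 13.6% of the 32851 RefSeq promoters of 300 bases. The core letters of a ZSCAN4 motif, TGCACAC, and of a Dux motif, GATTNAATC, were in none of the 5 promoters on either strand, against 4.4% and 0.268% of all promoters. GATTCAAT, a part of the Dux motif that was chosen after the sequences were seen, was in the promoters of Zscan4c and Zscan4f and in 0.496% of all. A match is a run of letters and not a site of binding. In the Zfp352 promoter the repeated word is GACAACACAC, and 1.62% of promoters hold any word of that length as often.

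Library totals lay between 8413212 and 35388461 counts for WAPL days 4 to 7, 12076585 and 26956675 for WAPL days 7 to 10, 13802076 and 33808921 for RAD21 RNA, and 14269544.5 and 34335988.5 for PRO-seq. Levels are given in CPM, the usual unit of counts scaled to library size, here with TMM factors. A count of 3 corresponded to between 0.0834 and 0.374 CPM, depending on the library, and lower levels were near the limit of detection. All 15 markers of pluripotent stem cells were detected, and their summed level was 2360 to 2580 CPM with DMSO and 1840 to 2700 CPM with dTAG-13 in WAPL days 4 to 7. The summed markers of 3 other cell types did not overlap between treatments in that window, higher for fibroblasts and trophoblast and lower for neural cells. The 10 fibroblast and feeder markers summed to 109 to 214 CPM with DMSO and 455 to 618 CPM with dTAG-13, with 6 higher and 1 lower of 9 tested. The 9 trophoblast markers summed to 356 to 585 and 1060 to 1360 CPM, with 5 higher of 6 tested, while their defining members Tpbpa and Prl3d1 were at 0 in all 6 libraries. The 8 neural markers summed to 338 to 404 CPM with DMSO and 231 to 276 CPM with dTAG-13. Of 7 neural markers tested, 1 was called higher and 1 lower, and 2 had a positive log2 difference, against 49.2% of all genes tested. Among all genes tested 9.46% were called higher and 5.73% lower. The part of these cell types in the values below was not tested. In such bulk RNA a change in the share of cells that use a gene cannot be told apart from a change in RNA per cell.

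In WAPL days 4 to 7 every dTAG-13 library held more RNA of all 6 genes than every DMSO library. The summed Zscan4 level was 6.45 CPM in the DMSO and 45.2 CPM in the dTAG-13 library of clone H7 replicate 1, 3.16 and 35.7 CPM in replicate 2, and 16.1 and 218 CPM in clone H2. The corresponding ratios were 7.01 (95% interval 6.01 to 8.19), 11.3 (8.84 to 14.7) and 13.5 (11.3 to 16.3). These intervals come from the 2 counts alone and cover counting error only. So the treated libraries held several times more Zscan4 RNA in both clones, and the H2 library stood far above the others within each treatment.

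Each copy followed that pattern. Zscan4d was at 2.86, 1.37 and 6.85 CPM with DMSO (clone H7 replicates 1 and 2, then clone H2) and at 18.9, 16.9 and 76.0 CPM with dTAG-13. Zscan4c was at 2.20, 0.989 and 6.35 CPM with DMSO and at 18.4, 13.1 and 94.3 CPM with dTAG-13. The treated groups lay apart from the controls for both, and the lowest treated library was above the highest control, which was that of clone H2. Zscan4f was at 0.917, 0.330 and 1.37 CPM with DMSO and at 4.48, 2.93 and 22.3 CPM with dTAG-13. Zscan4b was at 0.473, 0.471 and 1.495 CPM with DMSO and at 3.40, 2.79 and 25.2 CPM with dTAG-13. The rows with fewer reads thus also separated the groups, and again the treated H2 library was highest.

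The members at loci outside the cluster did the same at lower counts. Tmem92 was at 1.03, 0.612 and 1.25 CPM with DMSO and at 5.95, 3.69 and 10.6 CPM with dTAG-13. Its ratios were 5.78 (3.86 to 8.81), 6.03 (3.38 to 11.7) and 8.46 (4.47 to 18.0) in the 3 pairs. The intervals of the Tmem92 ratios overlapped across the clones. Zfp352 was at 0.500, 0.188 and 0.374 CPM with DMSO, on 18, 4 and 3 reads, and at 1.55, 1.88 and 4.47 CPM with dTAG-13, on 20, 54 and 58 reads. Its ratios were 3.09 (1.55 to 6.19), 9.99 (3.68 to 38.0) and 11.9 (3.89 to 59.6), and their wide intervals reflect the few control reads.

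**Figure D1:**
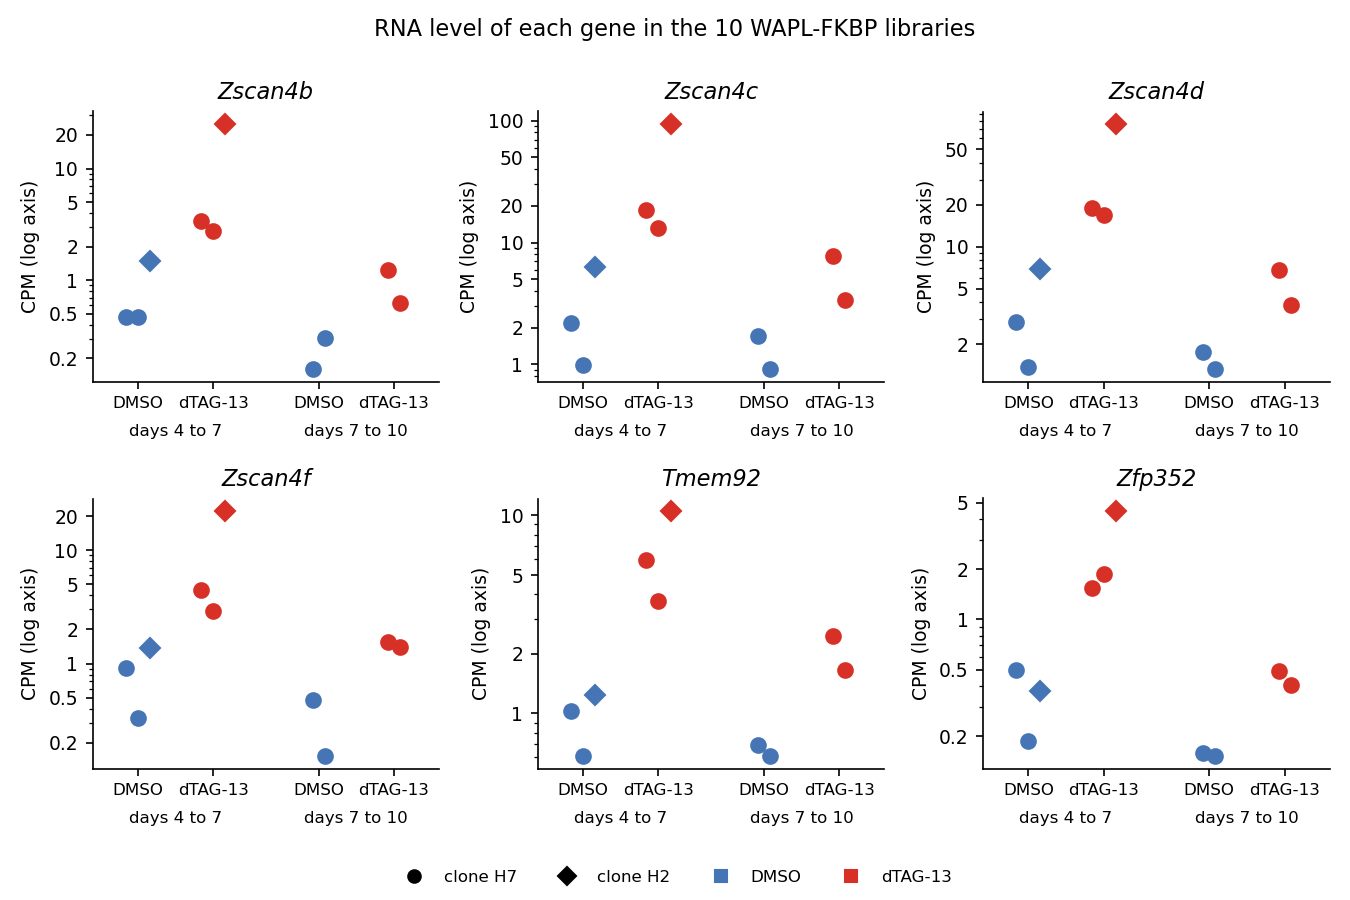
Level of each member in the WAPL RNA libraries, in CPM on a log axis, by window and treatment, with 1 point per library and clones H7 and H2 marked. For all 6 genes the dTAG-13 points sit above the DMSO points in both windows, and the treated clone H2 library of days 4 to 7 is the highest of each panel.

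Fitted over the 3 pairs with clone as a term, the log2 difference was 3.45 (SE 0.28) for Zscan4c, 3.20 (SE 0.31) for Zscan4b, 3.17 (SE 0.24) for Zscan4d, 2.93 (SE 0.41) for Zscan4f, 2.62 (SE 0.30) for Tmem92 and 2.51 (SE 0.40) for Zfp352. Their median was 3.05, against -0.0067 over the 14544 genes tested. In order of the log2 difference from the highest, the 6 genes took places 23 (Zscan4c) to 70 (Zfp352). All 6 are among the genes whose adjusted p was under 0.05 in edgeR's quasi-likelihood test with a positive difference, which hold 9.46% of the genes tested. Every treated library lay above every control library for 16.4% of the genes tested. With clone H7 alone 5 of 6 were called, without the H2 DMSO library 5 and without the H2 dTAG-13 library 4. Zfp352 was the one lost in each case, joined by Zscan4f in the last. Since this contrast chose the members, nothing is read from these counts. The test called 2209 genes in either direction, and 3993 with the replicate number as a block.

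The other window, days 7 to 10 in clone H7, was not used to choose the members, although its results had been seen. There too, Zscan4c, Zscan4d and Tmem92, which passed the count filter in both groups, had both treated libraries above both controls. This held for 17.3% of the 14110 genes tested there. Zscan4b and Zscan4f lay the same way but passed the filter only through the treated libraries. Zfp352 did too but was not tested, so these others are not set beside that share. The summed Zscan4 level was 4.09 and 17.4 CPM in replicate 1 and 2.68 and 9.23 CPM in replicate 2 (DMSO, then dTAG-13), a ratio of 4.25 (3.26 to 5.59) and 3.44 (2.55 to 4.72). Both ratios exceeded 1 by more than counting error. Marker sums of other cell types lay apart between treatments here as well, in both directions. This window has rows for only 9 of 10 fibroblast and feeder markers, 6 of 9 trophoblast, 6 of 8 neural and 4 of 8 endoderm markers. The fibroblast and feeder markers summed to 402 to 571 CPM with DMSO and 690 to 745 CPM with dTAG-13. The trophoblast markers summed to 1550 to 1730 and 2180 to 2590 CPM. The neural markers summed to 290 to 311 CPM with DMSO and 221 to 224 CPM with dTAG-13, and the endoderm markers to 69.6 to 77.5 and 43.8 to 44.5 CPM. The pluripotency markers summed to 1980 to 2590 and 1390 to 2080 CPM. Of these, 0 of 15 had a positive log2 difference, against 48% of all genes tested. No marker of these lists was called, in a fit that called no gene. Their part in the values here was not tested.

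Zscan4c was at 1.70 and 0.910 CPM with DMSO (replicates 1 and 2) and at 7.74 and 3.38 CPM with dTAG-13. Zscan4d was at 1.75 and 1.31 CPM with DMSO and at 6.83 and 3.83 CPM with dTAG-13. For both the lower treated library was still clear of the higher control. Zscan4f was at 0.478 and 0.152 CPM with DMSO and at 1.56 and 1.40 CPM with dTAG-13. Zscan4b was at 0.159 and 0.303 CPM with DMSO and at 1.24 and 0.625 CPM with dTAG-13, on 3 to 17 reads. The ratio of Zscan4b in replicate 2, 2.06 (0.775 to 6.38), had an interval that includes no difference.

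Tmem92 was at 0.690 and 0.607 CPM with DMSO and at 2.47 and 1.66 CPM with dTAG-13. Zfp352 was at 0.159 and 0.152 CPM with DMSO and at 0.494 and 0.405 CPM with dTAG-13, on 3, 3, 6 and 11 reads. Tmem92 kept the groups apart by a wide margin, while the Zfp352 ratios of 3.10 (0.662 to 19.2) and 2.67 (0.705 to 14.9) could not be told from no difference at this depth.

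The log2 difference in days 7 to 10 was 2.21 (SE 0.56, unadjusted p 0.011, adjusted p 0.6755) for Zscan4f, 2.06 (SE 0.56, adjusted p 0.6895) for Zscan4c, 1.88 (SE 0.62, adjusted p 0.701) for Zscan4b, 1.77 (SE 0.41, adjusted p 0.675) for Zscan4d and 1.63 (SE 0.39, adjusted p 0.675) for Tmem92. None passed the test. In this fit edgeR called 0.0% of the genes (0 of 14110), 926 had an unadjusted p under 0.05, and DESeq2 called 44. With the replicate number as a block 5141 genes were called, Zscan4c, Zscan4d and Tmem92 among them, although the labels give these libraries only a shared number. Zscan4b and Zscan4f passed the count filter only through the treated libraries, a choice that favours a difference, and are not counted here. Zscan4c, Zscan4d and Tmem92 passed it in both groups and had an unadjusted p under 0.05 with a higher treated level, as had 3.95% of all genes tested. Their places by log2 difference were 25 (Zscan4f), 30 (Zscan4c), 46 (Zscan4b), 57 (Zscan4d) and 70 (Tmem92). The call changed with single libraries: Zscan4c was called without DMSO replicate 1 (2.58, adjusted p 0.01) and without dTAG-13 replicate 2 (2.57, adjusted p 0.00216), and Zscan4d without dTAG-13 replicate 2 (2.15, adjusted p 0.027). Over all alternatives, designs included, the adjusted p ranged from 4.5e-08 to 0.8 for Zscan4c and from 4.87e-07 to 0.8 for Zscan4d.

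Within clone H7 the estimated difference between treatments was smaller in the later window for all 6 genes, but the difference between windows did not pass the test for any of them. Over all genes tested 47.3% had a positive change. Days 4 to 7 chose the members, and that choice alone favours a smaller estimate in the other window. Nothing is therefore read from this direction. The change in log2 difference from days 4 to 7 to days 7 to 10 was -1.26 (SE 0.58) for Zscan4d, -1.19 (SE 0.76) for Zscan4c, -0.85 (SE 0.59) for Tmem92, -0.80 (SE 0.70) for Zscan4b, -0.74 (SE 0.82) for Zfp352 and -0.22 (SE 0.90) for Zscan4f, each with an adjusted p of 0.9999. The test called 0.0% of 14324 genes, with 209 at an unadjusted p under 0.05 and 1 called by DESeq2. For Zscan4f the sign turned without days 4 to 7 dTAG-13 replicate 1 (0.10), days 4 to 7 DMSO replicate 2 (0.27) or days 7 to 10 DMSO replicate 1 (0.80).

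Clone H2 held more Zscan4 RNA than clone H7 under both treatments of days 4 to 7. Averaged over treatments, Zscan4b was higher in H2 by 2.69 (SE 0.29, adjusted p 0.00258) on the log2 scale, Zscan4c by 2.36 (SE 0.27, adjusted p 0.00367), Zscan4d by 1.92 (SE 0.24, adjusted p 0.00501) and Zscan4f by 2.20 (SE 0.40, adjusted p 0.0237). Among all genes 1.77% were called higher in H2. The 4 called members are near-identical copies whose reads may be shared, so they are not 4 separate results. The same libraries also gave the contrast that chose the members, so these calls are no independent evidence. Tmem92 (0.99, SE 0.31, adjusted p 0.124) and Zfp352 (1.09, SE 0.40, adjusted p 0.168) did not pass. The calls rest on the 2 libraries of H2. Without the H2 dTAG-13 library none of the 4 was called (adjusted p 0.224 to 0.685, log2 difference 1.03 to 1.93), and without the H2 DMSO library Zscan4d (adjusted p 0.052) and Zscan4f (adjusted p 0.0614) were not. Clone H2 is 1 line with 1 library per treatment, so the clone and its 1 round of culture cannot be told apart.

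The response to dTAG-13 could not be shown to differ between the clones. The difference of the log2 differences, H2 minus H7, was 1.602 (SE 0.81) for Zscan4f, 1.39 (SE 0.50) for Zscan4b, 1.35 (SE 1.00) for Zfp352, 0.67 (SE 0.59) for Zscan4c, 0.62 (SE 0.73) for Tmem92 and 0.45 (SE 0.53) for Zscan4d, each with an adjusted p of 0.9999. The test called 0.0% of the genes, 302 had an unadjusted p under 0.05, and DESeq2 called 1. Without DMSO replicate 1 the values of Zscan4c (-0.07) and Zscan4d (-0.21) turned sign.

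**Figure D2:**
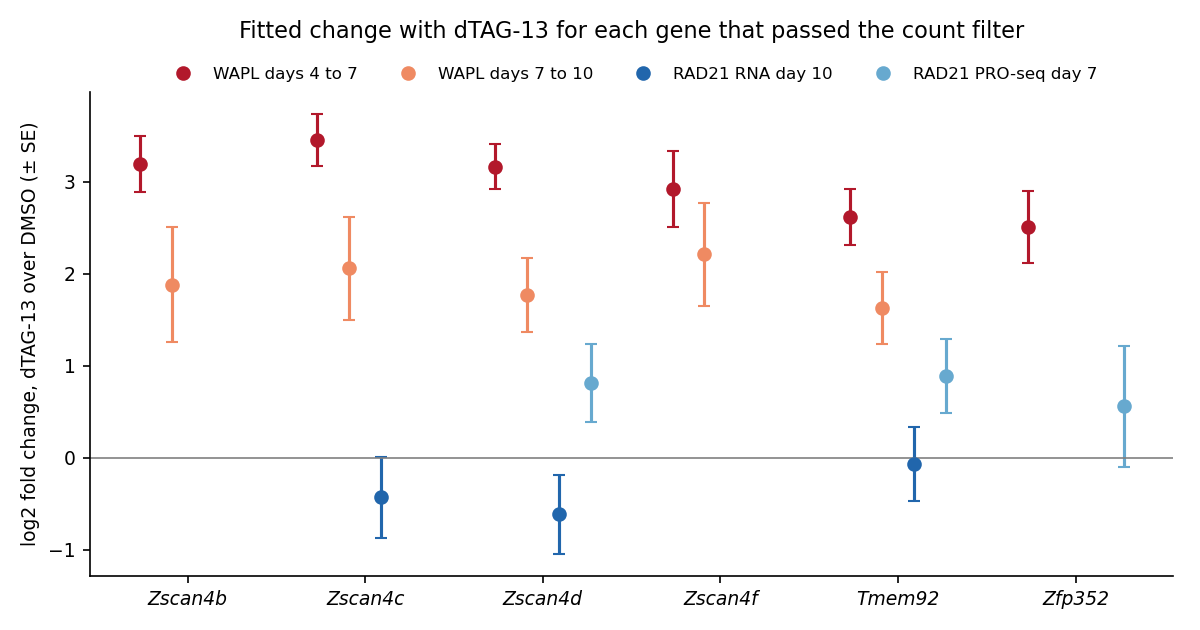
Log2 difference between dTAG-13 and DMSO for the members in the 4 comparisons, with bars of 1 standard error. The genes are on the horizontal axis and the log2 difference on the vertical one, and genes below the count filter have no point: the WAPL values run from 2.51 to 3.45 in days 4 to 7 and from 1.63 to 2.21 in days 7 to 10, and the RAD21 values lie on either side of 0, from -0.61 to 0.89.

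How reads were shared among near-identical copies is not given in the sources used here, so the division between the Zscan4 rows is uncertain. The row of Zscan4c even lists Zscan4d among its other names, while Zscan4d has a row of its own. Counts are not per length, so shares of reads are compared here between libraries and not between genes. Zscan4d took 34.9% to 47.2% of the summed Zscan4 reads over the 6 libraries of days 4 to 7 and Zscan4c 31.3% to 43.3%. Zscan4f took 8.20% to 14.2% and Zscan4b 7.33% to 14.9%. In days 7 to 10 the ranges were 39.3% to 49.1% for Zscan4d, 34.0% to 44.5% for Zscan4c, 5.66% to 15.1% for Zscan4f and 3.90% to 11.3% for Zscan4b. The ranges of the windows overlapped for each copy.

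In PRO-seq of the RAD21 clones Zscan4d took 59.3% to 80.0% and Zscan4c 7.41% to 19.4% of the Zscan4 reads. Of the reads of Zscan4c and Zscan4d together, Zscan4c held 11.1% (Wilson 95% interval 4.41 to 25.3) and 11.1% (3.10 to 32.8) in the DMSO libraries of C4 and G9, and 21.3% (12.9 to 33.1) and 23.1% (upper limit 42.1) in their dTAG-13 libraries. In poly(A) RNA of the same clones, taken at day 10 and not at day 7, it held between 43.5% and 50.0%. In days 4 to 7 it held 43.4% (36.4 to 50.7), 42.0% (29.4 to 55.8) and 48.1% (38.8 to 57.5) with DMSO and 49.3% (44.8 to 53.7), 43.8% (40.5 to 47.1) and, in clone H2, 55.4% (53.3 to 57.4) with dTAG-13. Among the treated libraries of that window the interval of clone H2 lay above that of clone H7 replicate 2 and overlapped that of replicate 1. The assays were counted by separate processing, whose part in this contrast was not tested.

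**Figure D3:**
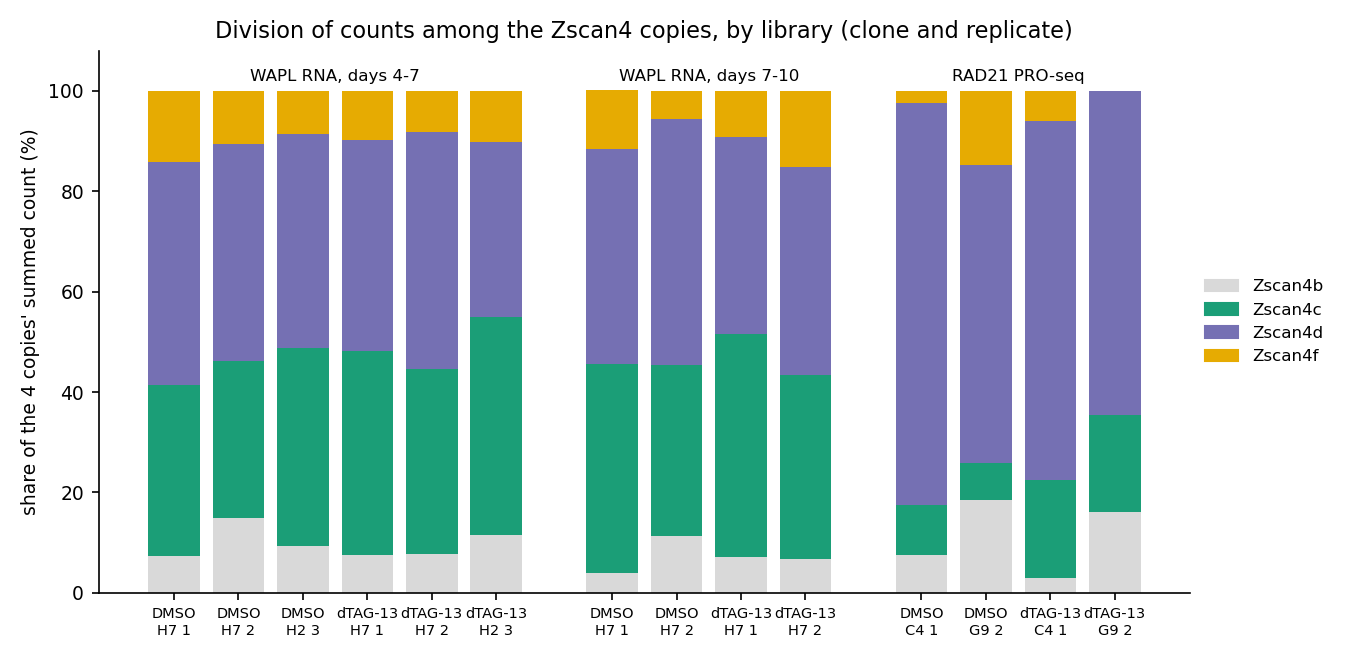
Share of the summed Zscan4b, Zscan4c, Zscan4d and Zscan4f reads that each copy took, in percent, with 1 stacked bar per library of the WAPL RNA and RAD21 PRO-seq sets. In the RNA libraries of the WAPL clones Zscan4c and Zscan4d each take between 31.3% and 49.1%, while in PRO-seq Zscan4d takes at least 59.3%.

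Of 5 other Zscan4 entries looked for, the tables hold only Zscan4a, labelled a pseudogene. Its level in days 4 to 7 was 2.84, 0.942 and 5.73 CPM with DMSO and 18.0, 12.9 and 60.4 CPM with dTAG-13, the same pattern as its neighbours in the cluster. Whether its row shares reads with those of the members is not given. That contrast chose the Zscan4 members, so the values of Zscan4a in it are a description without a test. The log2 difference was 3.08 (SE 0.33). In days 7 to 10 it was 2.05 (SE 0.40, adjusted p 0.663), in RAD21 RNA -1.23 (SE 0.50, adjusted p 0.0696) and in PRO-seq 0.48 (SE 0.68, adjusted p 0.734). Clone H2 exceeded H7 by 1.82 (SE 0.32, adjusted p 0.0214), which was not called without the H2 DMSO library (adjusted p 0.172) or without the H2 dTAG-13 library (adjusted p 0.429).

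The coding genes on both sides of each locus were read from RefSeq order, as the 3 nearest on each side that the table holds. The neighbours of the Zscan4 cluster in days 4 to 7, the vomeronasal receptor genes Vmn1r70, Vmn1r71, Vmn1r72, Vmn1r73 and Vmn1r74 and the NLR family gene Nlrp4b, had a mean of 0.0 CPM. So reads in the cluster were not accompanied by reads in the genes next to it. In the same window 9 of the 18 neighbours of all 3 loci were tested, and 5 were higher and 0 lower, against 9.46% of all genes called higher. Gm11544 among the higher ones passed the count filter only through the treated libraries, so the count over those tested favours a difference.

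Beside Tmem92, Gm11545 was at 0.584, 0.330 and 0.872 CPM with DMSO and at 2.70, 1.67 and 5.70 CPM with dTAG-13. Its log2 difference was 2.29 (SE 0.34, adjusted p 0.00551). On the other side, past 3 coding genes without a row in the table, Gm11544 was at 0.250, 0.141 and 0.498 CPM with DMSO and at 1.78, 1.05 and 2.00 CPM with dTAG-13. Its log2 difference was 2.48 (SE 0.41, adjusted p 0.00787), in a test that it entered only through the treated libraries. Further out Col1a1, a collagen gene of the fibroblast list, was higher by 1.07 (SE 0.23, adjusted p 0.0186), and Xylt2, a xylosyltransferase gene, by -0.08 (SE 0.11, adjusted p 0.663). Of the neighbours of Zfp352, the cell cycle inhibitor genes Cdkn2b (1.48, SE 0.19, adjusted p 0.00363) and Cdkn2a (1.00, SE 0.14, adjusted p 0.00499) were higher. Without either library of clone H2, Gm11545 (adjusted p 0.0565 and 0.0586), Gm11544 (0.0503 both times), Col1a1 (0.0926 and 0.0945) and Cdkn2a (0.05 and 0.0503) were no longer called. In days 7 to 10 none of 17 neighbours tested was called.

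Over the 10 WAPL libraries the genes whose profile was most like that of the summed Zscan4 copies were ranked by the root mean square difference in log2(CPM + 0.5), each library taken relative to the DMSO mean of its clone and window, among 13586 genes with a mean of at least 1 CPM. The closest were Gm2016 (0.234), Zscan4a (0.239), Atp4b (0.254), Usp17le (0.263), Usp17lc (0.271), Gm2022 (0.350), Gm5662 (0.366) and Gm8300 (0.401). Tmem92 came at place 20 (0.660) and Zfp352 at place 72 (1.02). With a pseudocount of 1 CPM, 6 of the first 8 were shared. Most of these names, such as Gm2016, Gm2022 and the Usp17l deubiquitinase genes, belong to multi-copy families, whose reads may be shared among copies as well.

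Atp4b, which encodes a subunit of the gastric proton pump, is a single gene outside those families. It was at 2.39, 1.08 and 2.87 CPM with DMSO and at 15.8, 10.2 and 30.6 CPM with dTAG-13 in days 4 to 7, and at 1.54 and 0.758 CPM and at 6.34 and 3.27 CPM in days 7 to 10. Its groups did not overlap in either window, as for 16.4% (days 4 to 7) and 17.3% (days 7 to 10) of all genes tested. The log2 difference in days 4 to 7 was 2.98 (SE 0.31). Atp4b was named for its likeness to the Zscan4 profile in these same libraries, so its values are a description without a test.

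**Figure D4:**
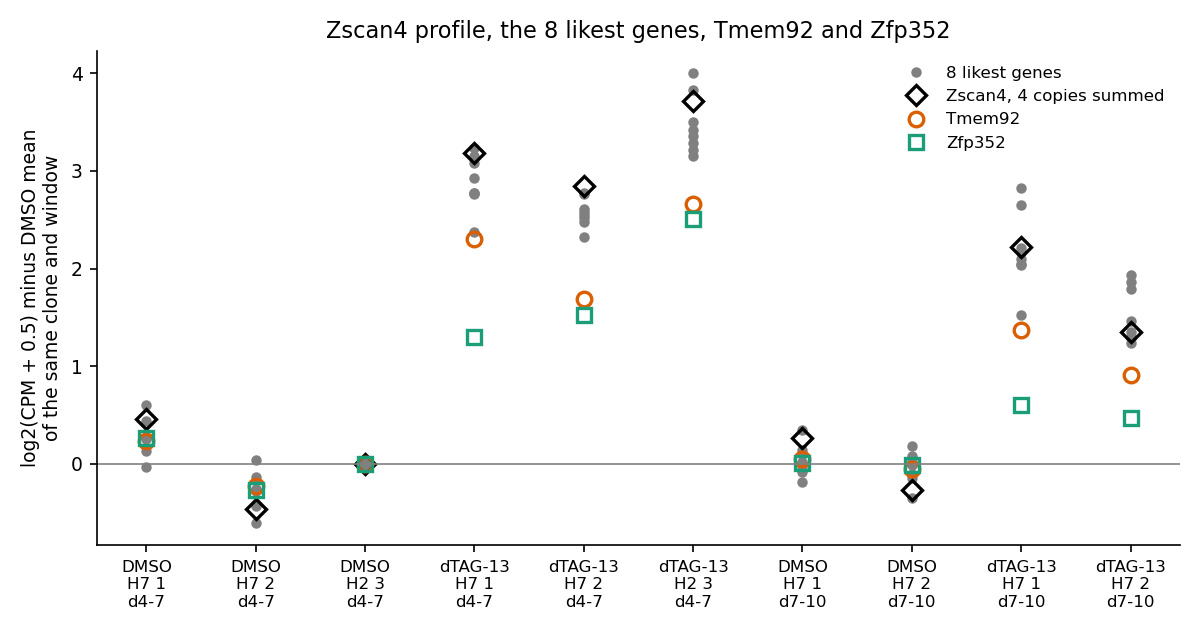
Profiles over the 10 WAPL RNA libraries of the summed Zscan4 copies, the 8 genes most like them, Tmem92 and Zfp352, as the difference in log2(CPM + 0.5) from the DMSO mean of the same clone and window. The closest genes run within 0.401 (root mean square) of the Zscan4 profile, Tmem92 differs by 0.660 and Zfp352 by 1.02.

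Other genes of the 2-cell program were higher with dTAG-13 as well. Of 27 that the days 4 to 7 table holds, 17 were tested and 17 were called higher, against 9.46% of all genes called higher. Their median log2 difference was 3.66, against -0.0067 over all genes. The summed level of the 27 was 8.24 to 25.9 CPM with DMSO and 87.8 to 429 CPM with dTAG-13. The smallest p-values were those of Usp17lb (4.53, SE 0.23, adjusted p 4.3e-04), Gm5662 (3.43, adjusted p 4.41e-04), Usp17la (4.17, adjusted p 7.38e-04) and Gm5039 (3.05, adjusted p 7.38e-04). With clone H7 alone 15 of 18 tested were called. Of the 17, 5 passed the count filter only through the treated libraries, so the count over those tested favours a difference. The list was drawn up with earlier results of these libraries known and is no independent evidence of a direction.

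In days 7 to 10, 10 of the 13 genes tested passed the filter only through the treated libraries, so no count of their direction is given. Of the 13, 0 were called in edgeR, as were 0 of all 14110 genes tested. With DESeq2 it was 6 of 10, in a fit that called 44 genes in all. With the replicate number as a block it was 12 of 13, in a fit that called 5141 genes in all. The filter favours a difference in these counts too, so no result is read from them. Some were also called with any 1 library left out. Between clones in days 4 to 7 all 17 tested had a higher estimate in H2 than in H7, with a median of 1.93. Of these 12 were called higher in H2, against 1.77% of all genes. The calls rest on clone H2 with its 1 library per treatment and did not hold without its dTAG-13 library.

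Among the activators of the program, Dux RNA was low. It was at 0.222, 0.0942 and 0.249 CPM with DMSO, on 8, 2 and 2 reads, and at 0.696, 0.627 and 1.69 CPM with dTAG-13, on 9, 18 and 22 reads. The treated libraries were all above the controls, and the log2 difference was 2.10 (SE 0.43, adjusted p 0.0165). Dux passed the count filter only through the treated libraries, a choice that favours a difference. Tbx3, a T-box factor that is also on the pluripotency list, was higher by 0.93 (SE 0.22, adjusted p 0.0262). Without either library of clone H2, neither Dux (adjusted p 0.131 and 0.132) nor Tbx3 (0.133 and 0.137) was called, and Tbx3 was not called without DMSO replicate 2 (0.0839). Dppa2 (0.46, SE 0.18, adjusted p 0.112), Dppa4 (0.28, SE 0.14, adjusted p 0.200) and Nelfa (0.16, SE 0.12, adjusted p 0.426) did not pass. So 2 of 5 tested, Dux among them, were called higher and 0 lower, against 9.46% of all genes called higher. With the replicate number as a block 4 of 5 were called higher, in a fit that called 2234 genes higher.

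In days 7 to 10 none of the 4 activators tested was called, and the log2 differences were -0.45 for Tbx3, -0.35 for Dppa4, -0.24 for Dppa2 and -0.09 for Nelfa. Dux has no row in that table or in the RAD21 RNA table.

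The count of called genes that hold the program down varied with the fit. Of 24 repressors tested in days 4 to 7, 0 were higher and 1 was lower, against 5.73% of all genes called lower. It was 5 lower with the replicate number as a block, 3 with DESeq2 or with no filter, 10 without dTAG-13 replicate 1 of clone H7 and 2 without replicate 2, and 0 without any other library. The 1 gene was the H3K9 methyltransferase gene Ehmt2 (-0.46, SE 0.12, adjusted p 0.0398), whose call was lost without any 1 of 5 libraries, that is all but dTAG-13 replicate 1 of clone H7 (adjusted p 0.0608 to 0.280). The median over the 24 was -0.23. In days 7 to 10, 0 of 24 were called. Of 14 telomere and meiotic recombination genes tested in days 4 to 7, 0 were higher and 2 lower, the DNA repair gene Brca2 (-0.57, adjusted p 0.0335) and the telomerase gene Tert (-0.45, adjusted p 0.0415), and 3 were lower with the block. Neither was called without any 1 of the 3 DMSO libraries or without the dTAG-13 library of clone H2 (adjusted p 0.0711 to 0.199), nor was Tert without dTAG-13 replicate 2 (0.0526). Of 24 other genes with a SCAN domain tested in days 4 to 7, 0 were called, and their median was -0.09. With the block 3 were lower, with no filter 2, with DESeq2 1, and 2 each without dTAG-13 replicate 1 and without dTAG-13 replicate 2 of clone H7.

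After RAD21 loss for 8 h no member passed the test. In the RNA of day 10 all members were at or below 1.17 CPM in every library. Zscan4d was at 0.797 CPM with DMSO and 0.719 CPM with dTAG-13 in clone C4 and at 0.752 and 0.224 CPM in clone G9. Zscan4c was at 0.755 and 0.719 CPM in C4 and at 0.578 and 0.224 CPM in G9. The treated G9 library held 3 reads of each, so its values are at the limit of detection.

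Tmem92 was at 0.881 and 1.17 CPM in C4 and at 0.549 and 0.150 CPM in G9, with opposite directions in the clones. Zfp352 was at 0.126 and 0.227 CPM in C4 and at 0.0868 and 0.224 CPM in G9, on 3, 6, 3 and 3 reads. Zscan4b was at 0.378 and 0.0757 CPM in C4 and at 0.0289 and 0 CPM in G9, and Zscan4f at 0.294 and 0.0757 CPM in C4 and at 0.0578 and 0 CPM in G9. No member tested had both treated libraries above both controls, and only Zscan4d below, against 15.6% (above) and 15.3% (below) of all genes tested. The treated C4 and G9 libraries of Zfp352 lay above both controls, on 3 to 6 reads per library. Zfp352 did not pass the count filter and was not tested, so it is not set beside that share. A count of 0 in the treated G9 library allows up to 0.224 CPM. The ratio of the summed Zscan4 reads was 0.715 (0.465 to 1.09) in C4 and 0.317 (0.111 to 0.740) in G9.

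The log2 difference was -0.61 (SE 0.43, adjusted p 0.359) for Zscan4d, -0.43 (SE 0.44, adjusted p 0.569) for Zscan4c and -0.06 (SE 0.40, adjusted p 0.942) for Tmem92. Among all genes 18.7% were called, 1422 higher and 1286 lower, and with library totals in place of TMM factors 710 higher and 1303 lower. Without the treated G9 library the values were -0.10 for Zscan4d, 0.13 for Zscan4c and 0.74 for Tmem92, and for Tmem92 the sign also turned without the DMSO library of C4 (0.43) and without the clone term (0.09). With the clone term dropped 1 gene was called in all.

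Clone G9 held less Tmem92 RNA than clone C4, by 1.27 on the log2 scale (-1.27, SE 0.42, adjusted p 0.00789), where 22.0% of all genes were called lower in G9. DESeq2 gave this gene no adjusted p, and with any 1 of the 4 libraries left out and the treatment term dropped it was not called (adjusted p 0.104 to 0.488). Zscan4c (-0.73, adjusted p 0.168) and Zscan4d (-0.49, adjusted p 0.353) did not pass.

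**Figure D5:**
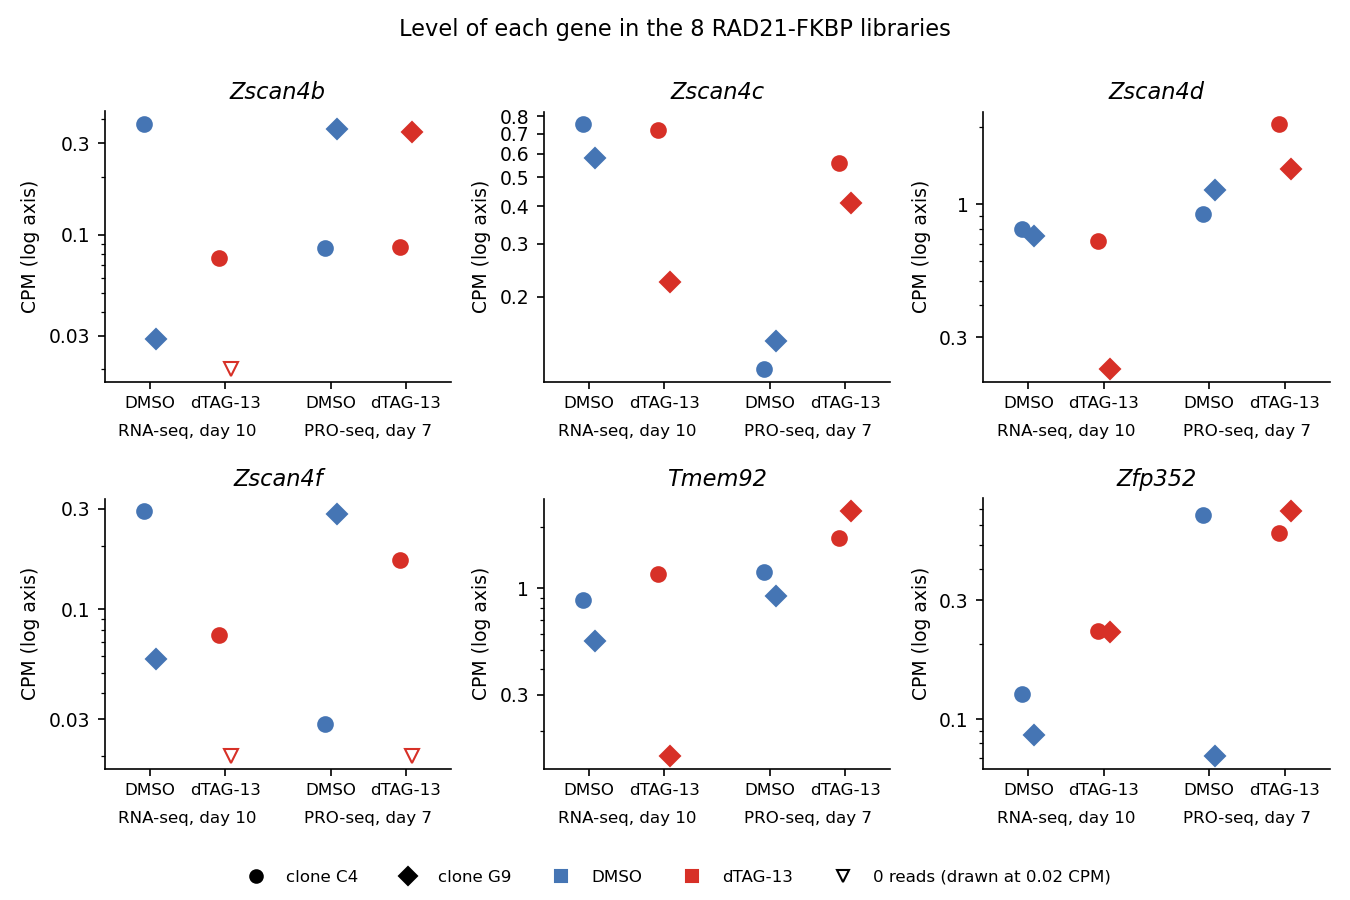
Level of each member in the RAD21 libraries, in CPM, for RNA at day 10 and PRO-seq at day 7, on a log axis, with 1 point per library, clones C4 and G9 marked and open triangles for libraries with 0 reads. Tmem92 RNA goes from 0.881 to 1.17 CPM in C4 and from 0.549 to 0.150 CPM in G9, and Zscan4d PRO-seq from 0.915 to 2.07 and from 1.14 to 1.37 CPM.

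In PRO-seq at day 7 no member passed the test either. Zscan4d was at 0.915 CPM with DMSO and 2.07 CPM with dTAG-13 in C4 and at 1.14 and 1.37 CPM in G9. Tmem92 was at 1.20 and 1.77 CPM in C4 and at 0.922 and 2.403 CPM in G9. For both genes the treated libraries lay above the controls, as for 14.5% of all genes tested. The ratio of Zscan4d was 2.26 (1.42 to 3.65) in C4 and 1.21 (0.596 to 2.50) in G9, and that of Tmem92 was 1.47 (0.933 to 2.32) and 2.61 (1.34 to 5.37), so each exceeded counting error in 1 clone only.

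Zscan4c was at 0.114 and 0.560 CPM in C4 and at 0.142 and 0.412 CPM in G9, on 4, 13, 2 and 6 reads. Zfp352 was at 0.657 and 0.560 CPM in C4 and at 0.0709 and 0.687 CPM in G9. Zscan4b was at 0.0857 and 0.0861 CPM in C4 and at 0.355 and 0.343 CPM in G9, and Zscan4f at 0.0286 and 0.172 CPM in C4 and at 0.284 and 0 CPM in G9. The groups overlapped for Zfp352, Zscan4b and Zscan4f, and they lay apart for Zscan4c on few reads.

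The log2 difference was 0.89 (SE 0.40, adjusted p 0.173) for Tmem92, 0.81 (SE 0.43, adjusted p 0.249) for Zscan4d and 0.56 (SE 0.66, adjusted p 0.669) for Zfp352, while 10.6% of all genes were called. That of Zfp352 was -0.08 without the DMSO library of G9. With the clone term dropped, 0 genes were called by edgeR in PRO-seq, and DESeq2 with the clone term called 514.

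No other gene of the program was called higher in the RAD21 libraries. Of the other 2-cell genes 0 of 2 tested were called in RNA and 0 of 5 in PRO-seq. The activator Dppa2 was lower in RNA (-0.37, SE 0.12, adjusted p 0.0109), with 0 higher and 1 lower of 4 tested where 8.89% of all genes were called lower, and its sign turned without the DMSO library of C4 (0.27) or the treated library of G9 (0.16). In PRO-seq 0 of 3 activators were called. Of the pluripotency markers 12 of 15 were lower in RNA and 8 of 15 in PRO-seq, where 4.66% of all genes were called lower. With DESeq2 it was 8 of 15 and 3 of 13, and with the clone term dropped 0 in each. Their summed level was 1240 to 1740 CPM with DMSO and 954 to 1370 CPM with dTAG-13 in RNA, and its part in the members' values was not tested. Of the SCAN genes 3 of 24 were lower in RNA (1 with DESeq2), led by Peg3, an imprinted zinc finger gene (-0.93, adjusted p 5.11e-23), and 1 of 23 in PRO-seq, again Peg3 (-0.87, adjusted p 3.38e-07). Peg3 was not called in either assay once the clone term was dropped (adjusted p 0.275 and 1.0). Of the neighbours, Xylt2 (-0.29), Cdkn2b (-0.63) and Elavl2 (-0.61) were lower in RNA and Xylt2 (-0.38) in PRO-seq, and none was called with the clone term dropped or with DESeq2. Peg3 stayed called by DESeq2 in RNA (adjusted p 1.13e-20) and was not called by it in PRO-seq (0.369).

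Set side by side over the 6 RNA groups, without a test since the tables are separate experiments, the summed Zscan4 level was 99.5 ± 102.4 CPM (SD, n = 3) in WAPL days 4 to 7 with dTAG-13, 13.3 ± 5.75 (n = 2) in days 7 to 10 with dTAG-13, 8.56 ± 6.71 (n = 3) in days 4 to 7 with DMSO and 3.38 ± 0.996 (n = 2) in days 7 to 10 with DMSO. It was 1.82 ± 0.570 (n = 2) in RAD21 DMSO and 1.02 ± 0.807 CPM (n = 2) in RAD21 dTAG-13. The treated libraries of days 4 to 7 lay apart from those of days 7 to 10, and the days 7 to 10 controls from the RAD21 controls. All other neighbours in this order overlapped. Each copy had the same order of means.

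Tmem92 had the same 3 groups at the top, at 6.73 ± 3.49, 2.06 ± 0.576 and 0.962 ± 0.322 CPM, and these did not overlap. Its remaining groups, RAD21 DMSO (0.715 ± 0.234), RAD21 dTAG-13 (0.662 ± 0.724) and days 7 to 10 with DMSO (0.648 ± 0.0591), all overlapped with a neighbour. Zfp352 was at 2.63 ± 1.598 CPM in WAPL days 4 to 7 with dTAG-13, apart from all other groups, and at or below 0.449 CPM on average elsewhere. The treated WAPL libraries of days 4 to 7 thus held the highest level of every member.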

How the data were processed

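Titles gave each sample's group, clone and replicate. The authors deposited 3 RNA tables of raw whole-number counts. Their deposited PRO-seq table has expected counts in steps of 0.5, which were rounded for the tests. The tools named, per the submitters' processing notes, include Bowtie2, TopHat2, Novoalign, HOMER, DESeq and DESeq2 and the builds mm9, hg19 and dm6, with no role or version. How reads were counted, with or without strand and over several gene copies, is not given in the sources used here, nor is any filter behind the table sizes of 24421, 14997, 15363 and 22529 rows.

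Differences were fitted in edgeR 4.0.16 (R 4.3.3) by its quasi-likelihood method after TMM scaling and filterByExpr at a minimum of 10 counts. A gene was called at a Benjamini-Hochberg adjusted p under 0.05 over its whole table. Clone was a term in WAPL days 4 to 7 and both RAD21 fits, which left 1 residual degree of freedom in RAD21. The sum of the Zscan4 copies was formed from their counts and described without a p. Ratios of 2 libraries carry exact 95% intervals from their counts. The tests were tested on simulated data with known changes. Alternatives were RLE factors, library totals, other filters, DESeq2 1.42.0, summed copies, other designs and leaving out each library. With RAD21, leaving out a library needed the clone term dropped, and a lone library was assumed to vary like the rest.

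The departures from the group means correlated between libraries with the same number in WAPL days 4 to 7 (r = 0.57, 0.603 and 0.692, the last being clone H2). The other pairings within H7 gave -0.00774 and 0.101. By a rule of r over 0.1 in every pair the numbers pair these samples, although the other pairing at 0.101 passes that value too. The main fit of this window has clone and no replicate term, so its SE and p ignore this pairing. It called 2209 genes, against 3993 with the replicate number as a block. RAD21 libraries are paired by clone, with r = 0.768 (RNA) and 0.79 (PRO-seq).

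The members and all gene lists were chosen with earlier results of these data known. Named are all members, the activators tested in the WAPL comparisons, and all Zscan4 entries held. Also named are up to 4 genes by smallest p of other lists, genes among the 3 nearest coding ones per side and the 8 most alike profiles. The activators Obox3, Obox5 and Obox6 did not pass the count filter where they had rows. Not every list is described for every comparison, and the repressor and telomere lists are left out for RAD21. ChIP-seq, Hi-C and other libraries were not analysed here. Figures were drawn with matplotlib 3.10.9.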

Additional observations from a re-analysis of the deposited data

Results flagged for a closer look

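In 4 cases the 2 RAD21 clones moved in opposite directions with dTAG-13. Each clone had 1 pair of libraries, and the difference between the clones was not tested. In RNA at day 10 Tmem92 differed by 0.293 CPM in C4 and by -0.4 CPM in G9, a difference of -0.693 CPM. In PRO-seq at day 7 Zscan4f differed by 0.144 CPM in C4 and by -0.284 CPM in G9, a difference of -0.428 CPM, and Zfp352 by -0.0975 CPM in C4 and by 0.616 CPM in G9, a difference of 0.713 CPM. Zscan4b differed by 0.0004 CPM in C4 and by -0.0114 CPM in G9, a difference of -0.0118 CPM, on 2 to 5 reads per library.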

How the results depend on the processing

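The number of genes called depended on the design more than on scaling. In WAPL days 4 to 7 it was 2209, against 3993 with the replicate block, 994 without the clone term (an alternative added after seeing the data), 360 in clone H7 alone and 341 to 4432 with 1 library left out; all 6 members kept a positive log2 difference in all these fits, from 2.20 to 3.94, but Zscan4b was not called without the clone term (adjusted p 0.0518). In WAPL days 7 to 10, where same-numbered libraries correlated at r = 0.849 but 2 pairs are too few for the pairing rule and the labels give them only a shared number, 0 genes became 44 with DESeq2, 5141 with the replicate block and 27 to 143 with 1 library left out. With the block, which called 5141 of 14110 genes, edgeR gave adjusted p of 4.5e-08 for Zscan4c, 4.87e-07 for Zscan4d and 3.46e-04 for Tmem92. It gave 1.08e-04 for Zscan4f and 0.0052 for Zscan4b. These 2 genes passed the count filter only through the treated libraries, a choice that favours a difference. The same holds for 10 of the 13 other 2-cell genes tested, of which the block called 12. No result is read from these counts. In RAD21 RNA 2708 became 472 with DESeq2, 1 without the clone term and 16 to 94 with a library left out. In PRO-seq 1743 became 514, 0 and 0 to 0. Between clones H2 and H7, 569 became 1138 without a filter, 1050 with DESeq2 and, in fits added after seeing the data, 63 to 1371 with a library left out. Between G9 and C4, 6248 became 1709 with DESeq2 and 0 to 265 with a library left out. For clone by treatment 0 became 1 with DESeq2 and 0 to 16 with a library left out, and for window by treatment 1 with DESeq2 and 1 with the replicate block. Signs turned for values that had not passed the test, by leaving out a library: in RAD21 RNA Zscan4c (0.1263, lowest -1.544) and Tmem92 (0.4302 and 0.7406, lowest -2.202; 0.09391 without the clone term), in PRO-seq Zfp352 (-0.08449, highest 3.00), for clone by treatment Zscan4c (-0.06587 to 1.096) and Zscan4d (-0.2108 to 0.8703), and for window by treatment Zscan4f (0.1016, 0.2682 and 0.7959, lowest -1.20). Dppa2 in RAD21 RNA, which had passed, turned to 0.2682 and 0.159, with a lowest value of -1.16. The causes were not tested, except that these fits hold fewer samples or terms. Zfp352 was below the filter in days 7 to 10 and in RAD21 RNA, Zscan4b and Zscan4f in both RAD21 sets and Zscan4c in PRO-seq, so depth limits what can be said of them.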
